A study of Rattus norvegicus with 24 samples.

Results

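The comparison described here set 4 F1 pups exposed to oxycodone (oxy) after birth against 4 F1 saline pups, 8 of the 24 RNA-Seq libraries of the series. Its members were the genes with at least 1 FPKM in 4 or more of the 8 libraries, which kept 13715 of 23950 genes, 13318 of them protein-coding. FPKM (fragments per kilobase of transcript, scaled to a fixed number of mapped fragments) is a level that takes account of gene length and library size. The tissue was the nucleus accumbens (NAc) of Sprague Dawley rats at postnatal day 14 (P14), cut from the brain with a matrix. In the postnatal oxy group (PNO), the F0 dams were given 15 mg/kg/day of oxy by mouth from parturition until weaning. At P14 the pups were still housed with their treated dams, and they were not dosed themselves. The saline group (SAL) served as the control. Each group held 4 pups, randomly chosen males or females with no sex stated per animal. The sources do not say whether the 4 came from separate litters, so p-values measure the spread between these samples alone. Replicate numbers below are those of the sample labels.

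The NAc is the ventral part of the striatum and a target of midbrain dopamine neurons. Most of its neurons are GABAergic striatal projection neurons, which carry dopamine D1 or D2 receptors and make opioid peptides such as enkephalin and dynorphin. Oxycodone acts mainly at the mu opioid receptor. The region lies close to the septum, the cortex, the lateral ventricle and, further back, the hypothalamus and thalamus, each of which has marker genes of its own.

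The total FPKM of the 8 libraries lay between 591060 and 673537, with 4939 to 5764 genes at 0 in a library. All 32 genes of the striatal projection neuron list passed the filter. So did all 10 thalamus and all 15 cortical excitatory neuron genes, so passing it does not tell the NAc from its neighbours. Markers of other tissues varied between libraries of the same group. The choroid plexus list (11 genes) summed to 5242 FPKM in SAL replicate 1 and 3837 in PNO replicate 3, against 6.3 to 258 in the other 6. The blood list summed to 473 FPKM in PNO replicate 3 and 13.8 to 91.6 elsewhere. The cortical list was lowest in SAL replicates 2 and 3 (155 and 83.8 FPKM, 229.7 to 473 in the others). The Y-linked gene Kdm5d was at 0.10 and 0.15 FPKM in PNO replicates 3 and 4, while the other 6 libraries held 4.96 to 6.84. Libraries low in this gene were thus found in PNO alone. If its level follows the sex of the pup, sex was unbalanced between the groups. Sex and exposure then cannot be fully told apart in this comparison.

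No gene passed an adjusted p of 0.05 in limma, a linear model fitted across all genes (0 of 13715). The smallest adjusted p was 0.144, reached by Retsat and Ak6. Without adjustment, 2195 genes (16%) had a p under 0.05, 974 (7.1%) higher and 1221 (8.9%) lower in PNO. The rule for a call was an unadjusted p under 0.05 together with a ratio of mean FPKM of at least 2, and 112 genes (0.817%) passed it. Of these, 63 (0.459%) were higher and 49 (0.357%) lower in PNO, and 83 were protein-coding. A gene is called higher or lower below only by its own p, values or group means, since none passed the adjusted test. PNO and SAL values were fully separated, without overlap, for 1289 genes (9.4%), 557 (4.06%) higher and 732 (5.34%) lower. The median difference over all genes was -0.04 on the log2 scale, so differences below are read against a shift close to 0. Leaving out SAL replicate 1 raised the genes past the rule to 226 (143 higher, 83 lower), leaving out PNO replicate 4 raised the lower genes to 75, and without PNO replicate 2 the genes with an unadjusted p under 0.05 numbered 1352. When both choroid plexus-rich libraries were left out, a setting chosen after seeing the data, 252 genes passed. Just inside the 2-fold limit were Pygl, Nmb and Derl3 (2.0-, 2.01- and 2.01-fold), and just outside it Nos1, Tmem245 and AABR07006774.1 (each 1.99-fold).

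**Figure D1:**
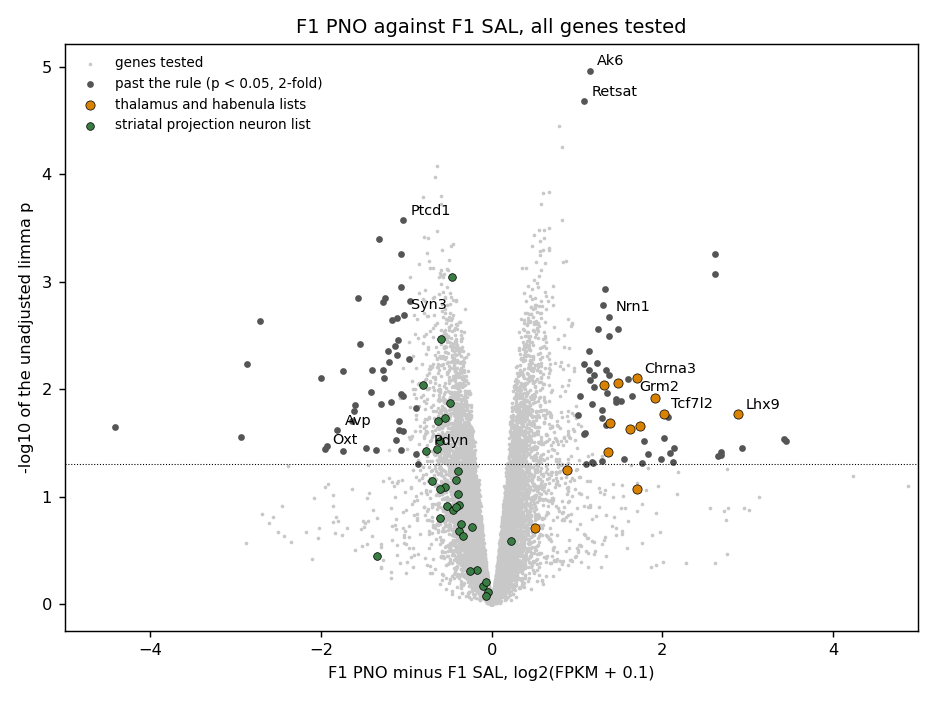
Difference between F1 PNO and F1 SAL (x axis, mean log2(FPKM + 0.1), higher in PNO to the right) against -log10 of the unadjusted limma p (y axis) for 13715 genes. Dark points passed the rule (63 higher, 49 lower), the dotted line marks the 0.05 level, all 13 thalamus and habenula genes lie right of 0 and 31 of 32 striatal projection neuron genes lie left of it.

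Thalamic and habenular genes stood on the higher side. All 10 genes of the thalamus list passed the filter and all 10 had a difference above 0, with a median log2 difference of 1.51 against -0.04 over all genes. Of the 10, 7 passed the rule on the higher side, where 0.459% of all genes did: Tcf7l2, Lhx9, Slc17a6, Gbx2, Lef1, Prkcd and Rgs16. The list was written with earlier results of these data known. Tcf7l2, Slc17a6, Gbx2, Lef1 and Prkcd were also among the genes the study had singled out. Lhx9 and Gbx2 reached 1 FPKM in every PNO library but not in every SAL library, so they passed the filter through the higher group. This count is therefore not independent support. Tcf7l2, a transcription factor of Wnt signalling that marks thalamic neurons, was at 51.5, 138, 60.8 and 96.7 FPKM in PNO and 63.8, 37, 12.3 and 5.2 in SAL. Its level was high in every PNO library and in SAL replicate 1, and low in SAL replicates 3 and 4, so that the groups overlapped. The mean was 2.93-fold higher in PNO, a log2 difference of 2.02 (standard error 0.70) with an adjusted p of 0.24 in limma. The exact permutation test over the 70 splits of 4 against 4 libraries gave a two-sided p of 0.0857, where 0.0286 is the smallest it can give.

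Slc17a6 encodes the vesicular glutamate transporter VGLUT2, which thalamic neurons use in place of the cortical VGLUT1. It measured 32.7, 92.5, 32.8 and 58.4 FPKM in PNO and 41, 24.2, 10.2 and 4.42 in SAL, a log2 difference of 1.74 (standard error 0.64). Lhx9, a LIM homeobox factor, was at 3.38, 7.4, 2.89 and 5.72 FPKM in PNO and 3.9, 1.3, 0 and 0.17 in SAL, with a log2 difference of 2.89 (standard error 1.0). Both genes had their highest SAL value in replicate 1 and their highest PNO value in replicate 2. Gbx2, a homeobox factor of thalamic development, was at 3.53, 7.22, 5.81 and 7.21 FPKM in PNO and 4.42, 3.65, 1.23 and 0.46 in SAL (2.44-fold). Lef1, which binds DNA as Tcf7l2 does, was at 8.32, 16.2, 7.0 and 12.7 in PNO and 7.39, 6.23, 2.44 and 2.61 in SAL (2.37-fold). The protein kinase gene Prkcd and the G protein regulator Rgs16 were 2.03- and 2.27-fold higher. The remaining members did not pass the rule. Synpo2, Tnnt1 and Plekhg1 had log2 differences of 1.71, 0.89 and 0.50, with 95% intervals of -0.29 to 3.71, -0.03 to 1.80 and -0.31 to 1.32.

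Of the 8 habenula genes listed, 3 passed the filter and all 3 passed the rule (median log2 difference 1.70), where 0.459% of all genes did on the higher side. Chrnb4 and Nhlh2 were at 1 FPKM or more in every PNO library but not in every SAL library. They passed the filter through the group where they were higher, so this count and median add no support. Chrna3 and Chrnb4 encode the nicotinic receptor subunits that mark the medial habenula, where they form one receptor. Chrna3 was at 5.11, 9.32, 2.13 and 7.96 FPKM in PNO and 3.74, 1.28, 1.16 and 1.07 in SAL (3.38-fold, exact permutation p = 0.0571). Chrnb4 was at 2.6, 4.79, 1.82 and 5.15 in PNO and 2.31, 1.39, 0.75 and 0.61 in SAL (2.84-fold). The transcription factor Nhlh2 was at 1.56, 2.92, 1.66 and 2.32 in PNO and 2.01, 0.48, 0.29 and 0.12 in SAL (2.92-fold). In all 3 genes SAL replicate 1 lay within the PNO range and the other SAL libraries lay below it. Habenula genes that did not pass the filter were Gpr151 (0.82, 1.6, 0.44 and 1.41 FPKM in PNO, 0.63, 0.33, 0.16 and 0.32 in SAL), Pou4f1, Irx2 and Chrnb3.

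The summed level of the 10 thalamus genes was 138, 349.9, 160.5 and 245 FPKM in PNO and 175, 109.8, 41.7 and 27.7 in SAL. In the 16 libraries of the other groups it ran from 31.0 to 235 FPKM. In bulk tissue, more thalamic cells in a piece and more thalamic RNA per cell cannot be told apart. With 1 library left out, between 2 and 8 of the 10 genes passed the rule: 2 without PNO replicate 2, 4 without SAL replicate 3, and 8 without SAL replicate 1, SAL replicate 2 or PNO replicate 1. With PNO replicates 3 and 4 left out, a setting chosen after seeing the data, 1 passed. With the level of the other thalamus genes as a covariate, the log2 differences of Tcf7l2, Slc17a6 and Gbx2 were -0.01, -0.08 and -0.03, and those of Chrna3, Chrnb4 and Nhlh2 0.68, 0.33 and 0.35. Of the 112 genes past the rule, 30 kept an unadjusted p under 0.05 with this covariate, 10 of the 63 higher and 20 of the 49 lower ones.

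**Figure D2:**
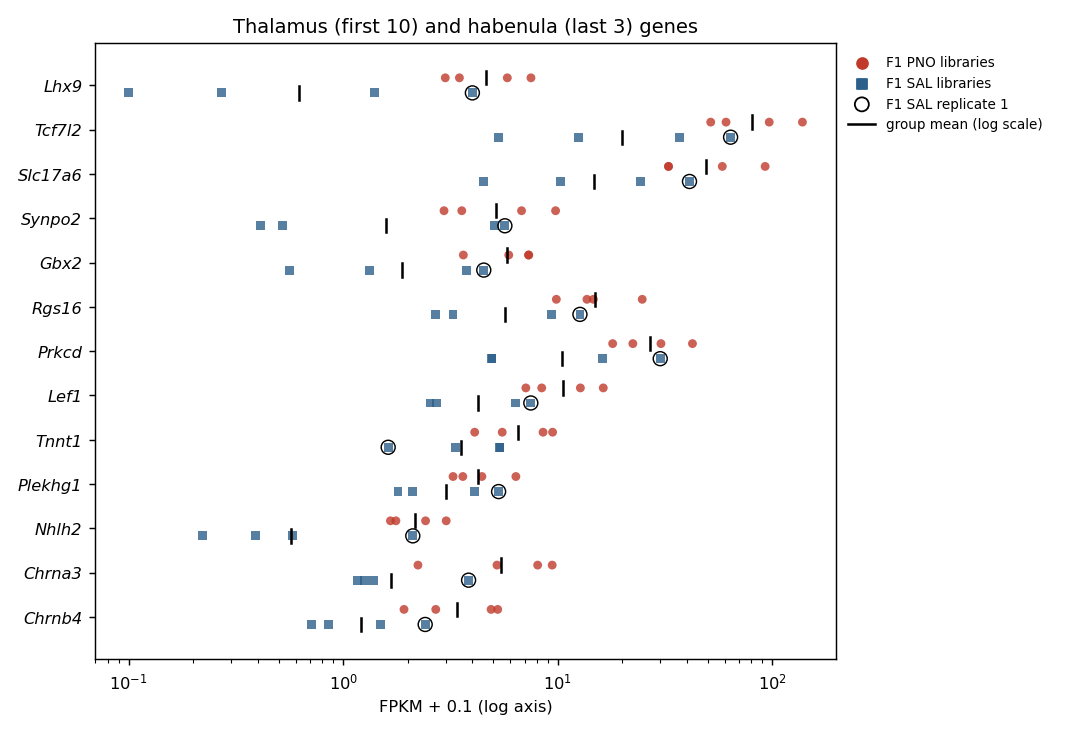
FPKM + 0.1 on a log axis of the 10 thalamus genes (Lhx9 to Plekhg1) and 3 habenula genes (Nhlh2 to Chrnb4) in each of the 8 libraries, with circles for F1 PNO, squares for F1 SAL, a ring around SAL replicate 1 and black bars for group means on the log scale. SAL replicate 1 sits among the PNO libraries for all genes but Tnnt1, and SAL replicates 3 and 4 sit lowest for most.

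The DNA core bound by TCF and LEF factors, CTTTGAT, was looked for on both strands in the 250 bases before each gene start of the RefSeq table (build GRCr8), because Tcf7l2 and Lef1 are among the genes past the rule. It was present in 3.15% of 33469 promoters. Among the 49 genes past the rule that had an entry there (62 promoters), 1 promoter held it, that of Slc17a6, which is also the only one of 14 thalamus and habenula promoters with it. The 250 bases before the Slc17a6 start, chr1:110348197-110348446 on the plus strand, are shown with the core in capitals, starting 25 bases before the gene start.
Slc17a6 promoter: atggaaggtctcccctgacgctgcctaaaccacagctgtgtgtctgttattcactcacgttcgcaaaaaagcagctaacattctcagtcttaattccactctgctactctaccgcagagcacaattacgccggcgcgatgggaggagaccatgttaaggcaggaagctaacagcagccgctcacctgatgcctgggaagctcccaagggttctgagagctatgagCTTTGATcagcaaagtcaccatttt
A match in the letters is a description of this window and says nothing of binding.

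Other genes past the rule had the same pattern over the libraries. Grm2, a presynaptic metabotropic glutamate receptor, was at 10.9, 23.9, 15.6 and 19.2 FPKM in PNO and 14.3, 7.9, 2.46 and 2.76 in SAL (2.53-fold, adjusted p = 0.223 in limma). Ptger3, a prostaglandin E2 receptor, was at 1.98, 4.33, 2.24 and 3.08 in PNO and 2.32, 1.24, 0.64 and 0.40 in SAL (2.53-fold). Both were high in SAL replicate 1, and their log2 differences with the thalamus covariate were 0.11 and 0.16. Zic4, a zinc finger factor on the septum and basal forebrain list, was at 5.92, 11.1, 8.88 and 8.38 in PNO and 8.07, 2.68, 1.82 and 1.3 in SAL (2.47-fold). It was the 1 of 9 genes of that list to pass, Zic2 had an unadjusted p under 0.05 (1.82-fold), and the list median was 0.09.

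Hypothalamic peptides lay on the lower side. The vasopressin gene Avp was at 1.98, 1.09, 5.18 and 2.56 FPKM in PNO and 10.4, 5.8, 29 and 2.8 in SAL, 4.44-fold lower in PNO with a log2 difference of -1.81 (standard error 0.67). The oxytocin gene Oxt was at 0.34, 1.81, 2.54 and 6.0 in PNO and 3.51, 8.42, 22.4 and 4.29 in SAL, 3.61-fold lower with a log2 difference of -1.95 (standard error 0.80). For both, SAL replicate 3 was the highest library and the groups overlapped, for Avp because SAL replicate 4 was low and for Oxt because PNO replicate 4 was high. The exact permutation test gave p = 0.0571 for Avp and 0.114 for Oxt. Of the 9 hypothalamus genes that passed the filter, these 2 passed the rule, and Trh and Gal had an unadjusted p under 0.05 (1.51- and 1.38-fold lower). On the lower side, 0.357% of all genes passed the rule and 8.9% had such a p. Avp and Oxt were among the genes the study had singled out, and the list was written with earlier results known. These counts are therefore not independent support. The list median was -0.35. Of its 19 genes, 10 did not pass the filter, among them Otp, a factor of the neurons that make both peptides, at 0, 0.37, 0.03 and 0.54 FPKM in PNO and 0.50, 0.78, 2.61 and 2.16 in SAL, and Sim1, at or near 0 in all 8 libraries. The summed level of the list was 52.6 to 88.4 FPKM in PNO and 84.3 to 164 in SAL, with SAL replicate 3 highest. Without PNO replicate 1, PNO replicate 2 or SAL replicate 3, 0 of the 9 passed the rule, and without SAL replicate 1 or SAL replicate 2 the number was 1. It was 0 with the thalamus covariate. The part of hypothalamic tissue in the values of Avp and Oxt was not tested.

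The genes of the NAc's own projection neurons were lower by smaller amounts. Of the 32 genes on the list, 31 had a difference below 0, with a median of -0.43 against -0.04 over all genes. None passed the 2-fold rule, and 9 (Strn, Gnal, Pde10a, Pde1b, Adcy5, Gng7, Scn4b, Ankrd63 and Pdyn) had an unadjusted p under 0.05, all lower in PNO, where 8.9% of all genes did. Pde10a, the phosphodiesterase that breaks down cyclic nucleotides in these neurons, was at 16.4, 11.9, 10.6 and 21.3 FPKM in PNO and 17.9, 26.5, 33.4 and 25.9 in SAL (1.73-fold lower, adjusted p = 0.212 in limma). Gnal, the G protein alpha subunit that couples D1 and adenosine receptors to adenylyl cyclase, was at 76.2, 55.8, 58 and 58.2 in PNO and 73.1, 114, 101 and 89.6 in SAL (1.52-fold lower). Adcy5, the main striatal adenylyl cyclase, was at 42.6, 34.8, 48.5 and 47.4 in PNO and 42.1, 72.3, 74.6 and 67.5 in SAL (1.48-fold lower). SAL replicate 1 lay within the PNO range for Pde10a, Gnal and Adcy5, and SAL replicates 2 to 4 lay above every PNO library. Strn, a calmodulin-binding scaffold, was the one member whose groups did not overlap, at 15.8, 13.1, 15.2 and 15.2 in PNO and 18.7, 20.1, 22 and 21 in SAL (log2 difference -0.47, standard error 0.10, exact permutation p = 0.0286). Groups without overlap always give this smallest permutation p, so it adds no support.

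The dopamine receptors themselves did not pass the test. Drd1 was at 16.6, 12.5, 14.9 and 16.5 FPKM in PNO and 13.8, 27.2, 23.6 and 18.2 in SAL (log2 difference -0.41, 95% interval -0.87 to 0.04). Drd2 was at 25.5, 20.3, 18.2 and 31.4 in PNO and 19.2, 38.3, 69.2 and 40.0 in SAL (log2 difference -0.69, 95% interval -1.46 to 0.07). For both, SAL replicate 1 was the lowest SAL library and lay inside the PNO range. The most abundant genes of the list, Ppp1r1b (DARPP-32) and Penk (proenkephalin), had log2 differences of -0.54 and -0.38. Of 9 dopamine system genes that passed the filter, none had an unadjusted p under 0.05 and the median was -0.39. Bcl11b, a defining factor of projection neurons, was above 24 FPKM in PNO replicate 1 and SAL replicates 2 and 4 and at 0.52 to 1.61 in the other 5 libraries.

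The projection neuron list summed to 1232 to 1591 FPKM in PNO and 1217 to 2725 in SAL, where replicate 1 gave the lowest of all 8 values. That library also held the most thalamus RNA of its group. With the thalamus covariate the median was -0.04 and 1 of 32 genes (Strn) had an unadjusted p under 0.05. Without SAL replicate 1 the number was 22, without PNO replicate 2 or SAL replicate 3 it was 4, and without SAL replicate 2 it was 5.

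**Figure D3:**
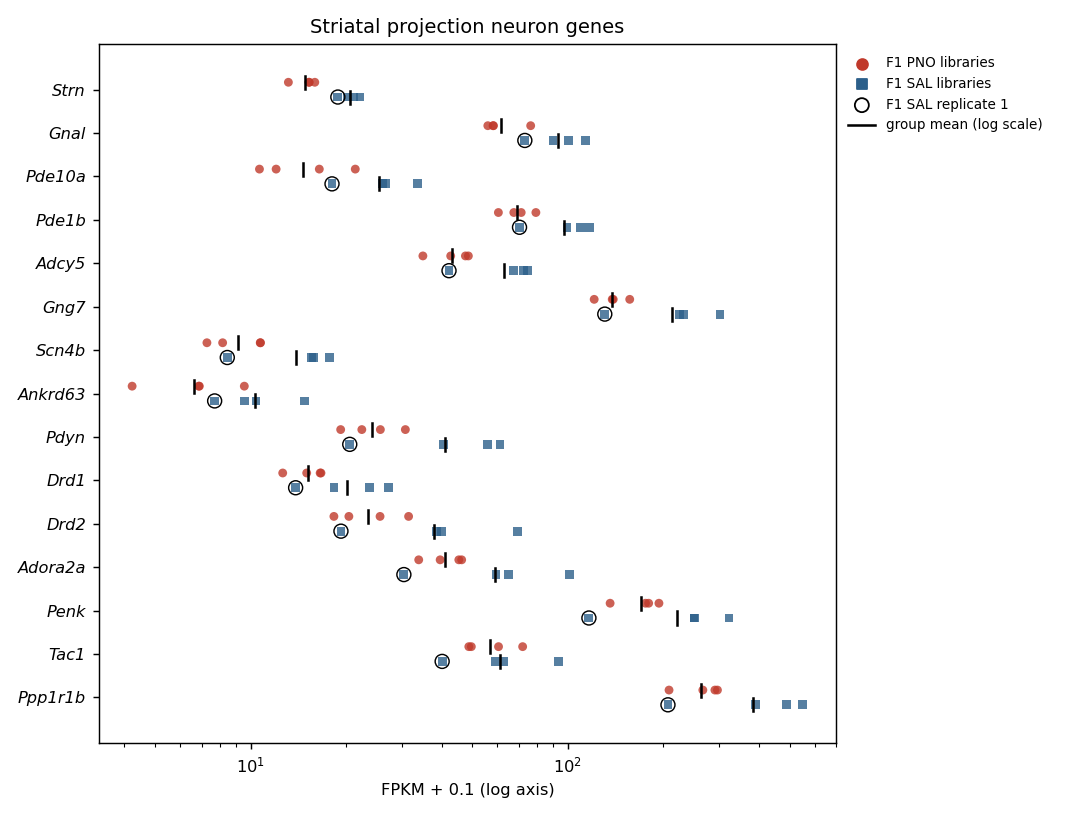
FPKM + 0.1 on a log axis of 9 striatal projection neuron genes with an unadjusted p under 0.05 (Strn to Pdyn), followed by Drd1, Drd2, Adora2a, Penk, Tac1 and Ppp1r1b, in each library. Circles are F1 PNO, squares F1 SAL, the ring marks SAL replicate 1 and black bars are group means on the log scale; SAL replicate 1 sits with the PNO libraries for most genes.

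Among opioid genes, the nociceptin receptor Oprl1 was at 4.74, 5.73, 6.03 and 5.99 FPKM in PNO and 7.27, 7.67, 8.25 and 8.37 in SAL. Every PNO library lay below every SAL library, a 1.4-fold lower mean (log2 difference -0.49, standard error 0.11, adjusted p = 0.195 in limma, exact permutation p = 0.0286). The permutation p follows from that separation and adds no support to it. With the thalamus covariate the log2 difference was -0.43. Pdyn, the precursor of dynorphins, was at 25.5, 22.3, 19.1 and 30.6 FPKM in PNO and 20.4, 40.5, 61 and 55.5 in SAL (1.82-fold lower), with SAL replicate 1 below 3 of the PNO libraries. The kappa receptor gene Oprk1 had a log2 difference of -0.52 (95% interval -1.12 to 0.07) and Pnoc, the nociceptin precursor, of -0.33 (-0.79 to 0.12). The mu receptor gene Oprm1 did not pass the filter, at 0.13, 0.13, 0.09 and 0.27 FPKM in PNO and 0.16, 0.15, 0.08 and 0.46 in SAL, nor did the delta receptor gene Oprd1, at 0.89, 0.13, 1.1 and 0.53 in PNO and 0.56, 0.79, 0.87 and 1.42 in SAL. In all, 2 of 6 opioid genes that passed the filter (Oprl1 and Pdyn) had an unadjusted p under 0.05. Both were lower, where 8.9% of all genes were at that threshold. Without SAL replicate 1 the number was 4, without PNO replicate 4 it was 3, and with any other library left out it was 1. The hypocretin gene Hcrt had a log2 difference of -0.09 (95% interval -1.62 to 1.44), its receptor gene Hcrtr1 of -0.69 (-1.74 to 0.35), and Pmch, the precursor of melanin-concentrating hormone, did not pass the filter. Nptx2, a pentraxin that clusters AMPA receptors, was 1.56-fold higher in PNO (unadjusted p under 0.05, log2 difference 0.74, standard error 0.29). It lost that p in 4 of 8 settings that left out 1 library (PNO replicate 2 or 3 or SAL replicate 2 or 3).

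The 24 protein-coding genes past the rule with the smallest p and no overlap between groups, 12 higher and 12 lower, are described here by their values. They were chosen for separation and a small p, so their permutation p (the smallest possible) and their p with a library left out add no support. Some passed the filter through the group where they were higher, such as AABR07030903.1 and AABR07054460.4, which were under 1 FPKM in all 4 PNO libraries. Ak6, a nuclear adenylate kinase, was at 42.2, 41.7, 39 and 36.3 FPKM in PNO and 18.7, 15.1, 22.8 and 15.6 in SAL, 2.21-fold higher with a log2 difference of 1.15 (standard error 0.14). Its adjusted p was 0.144 in limma and ran from 0.0295, without SAL replicate 3, to 0.539 over the alternatives. Retsat, the enzyme that saturates retinol, was at 30.4, 21.4, 25.1 and 33.5 in PNO and 12.4, 12.3, 13.3 and 13.1 in SAL, 2.16-fold higher with a log2 difference of 1.09 (standard error 0.14). Its adjusted p was 0.144 as well. When all 24 libraries shared the estimate of spread, its adjusted p was 7.06e-04, the only gene under 0.05 in that setting, and the highest over the alternatives was 0.539. For both genes all 4 PNO libraries were well above all 4 SAL libraries, with no library between the groups. The differences with the thalamus covariate were 1.22 for Ak6 and 1.20 for Retsat.

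Nrn1 encodes neuritin, a small protein of axon and dendrite growth that is released on neuronal activity. It was at 38.8, 70.6, 44 and 40.1 FPKM in PNO and 30.7, 17.9, 9.59 and 19.9 in SAL (2.47-fold). A second entry with a neuritin description, AABR07027407.1, was 2.06-fold higher. Reads may have been shared between these near-identical entries, so both values are uncertain. S100a10, an annexin partner also called p11, was at 72.2, 122, 85.6 and 84.9 in PNO and 72.2, 47, 17.5 and 38 in SAL (2.09-fold). The groups nearly met, since the highest SAL library (replicate 1) and the lowest PNO library were both at 72.2. Its SAL levels varied more than those of Ak6 and Retsat. Grp, gastrin-releasing peptide, was at 4.61, 15.8, 8.74 and 7.49 in PNO and 4.24, 2.07, 2.91 and 3.75 in SAL (2.82-fold). Sptssb, a small subunit of the enzyme that starts sphingolipid synthesis, was 2.24-fold higher, Ripply2 3.07-fold and Tmem196 2.08-fold. The log2 differences of Nrn1, Sptssb and S100a10 with the thalamus covariate were 0.73, 0.37 and 0.33. The entries without a gene symbol, AC108616.2, AABR07060610.1 and AABR07057190.1, were 5.26-, 5.75- and 2.59-fold higher. The latter pair carry ribosomal protein annotations, and reads from near-identical copies may have been split between such entries.

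On the lower side, Ptcd1, a mitochondrial RNA-processing protein, was at 3.45, 3.97, 5.5 and 3.07 FPKM in PNO and 6.9, 8.1, 9.3 and 8.23 in SAL (2.03-fold lower, log2 difference -1.03, standard error 0.18, adjusted p = 0.195 in limma). Sdhaf3, an assembly factor of succinate dehydrogenase, was at 1.14, 1.54, 1.46 and 0.89 in PNO and 3.64, 3.85, 1.76 and 3.79 in SAL (2.59-fold lower). Syn3, the third synapsin of synaptic vesicles, was at 3.09, 2.23, 1.52 and 3.28 in PNO and 4.08, 4.98, 5.17 and 6.2 in SAL (2.02-fold lower). In each of these 3 genes the PNO libraries lay below all SAL libraries, most narrowly for Sdhaf3, where SAL replicate 3 was low. The phosphoinositide kinase gene Pik3c2b was 2.3-fold, Uprt 2.16-fold, Gprin3 2.31-fold and the kinase gene Cdkl4 2.18-fold lower. Low levels were common, and the mean of 1 group was under 1 FPKM for 32 of all 112 genes past the rule. The 12 lower genes had log2 differences with the thalamus covariate of -1.57 (Sdhaf3) to -0.59 (Pik3c2b), all below 0.

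**Figure D4:**
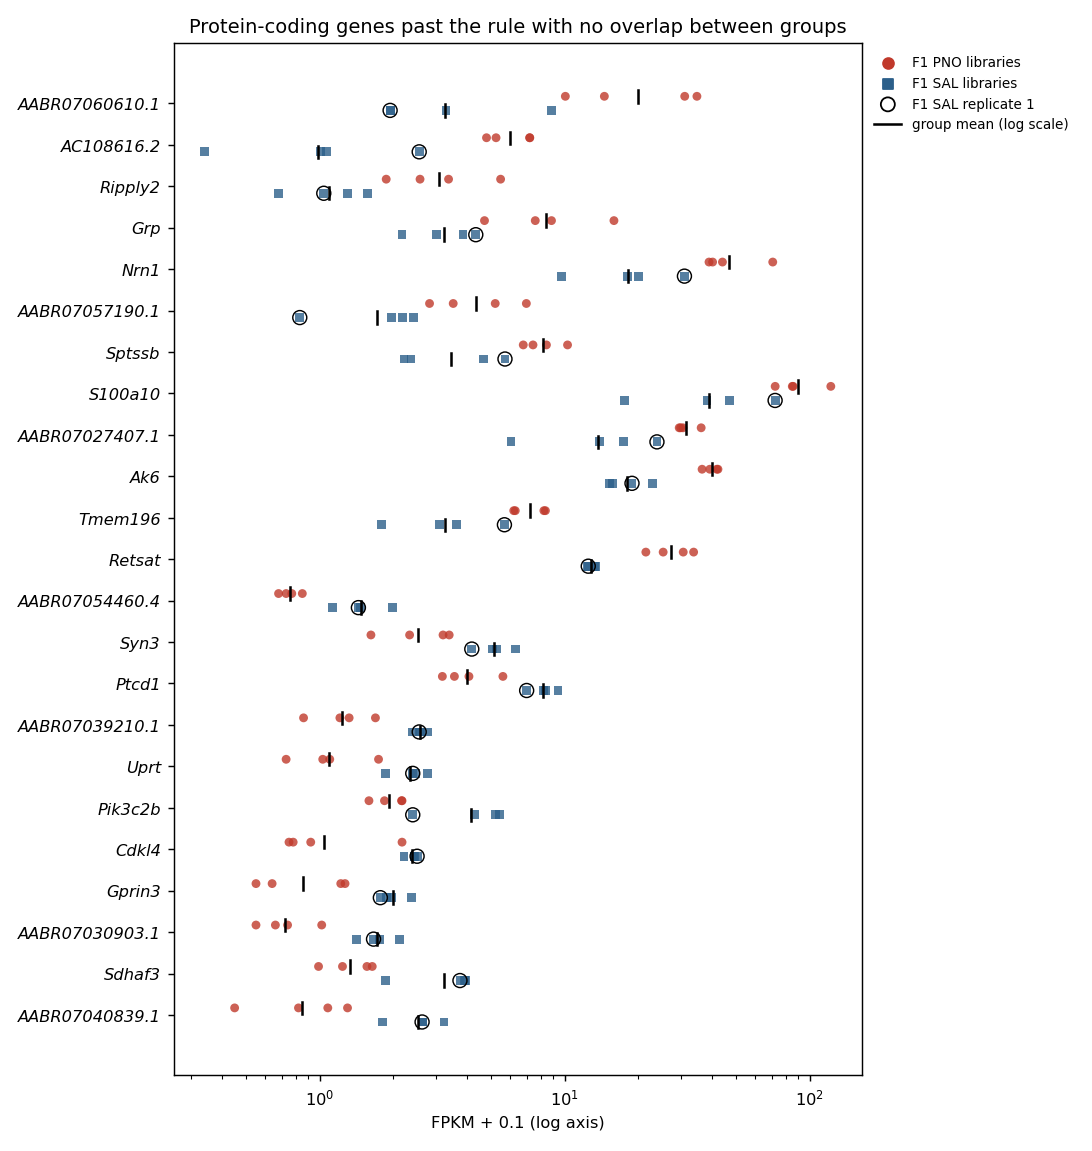
FPKM + 0.1 on a log axis, in each library, of 23 of the 24 protein-coding genes past the rule with the smallest p and no overlap between groups, ordered by difference. Circles are F1 PNO, squares F1 SAL, the ring marks SAL replicate 1 and black bars are group means on the log scale; the 12 upper genes are higher in PNO in 4 of 4 libraries and the 11 lower genes lower in 4 of 4.

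Genes of synaptic transmission differed in both directions, and their counts stand against 7.1% of all genes higher and 8.9% lower at an unadjusted p under 0.05. Among glutamate receptors, Grm5, the postsynaptic metabotropic receptor mGluR5, was at 7.82, 7.52, 8.13 and 10.7 FPKM in PNO and 9.4, 11.6, 13.1 and 15.3 in SAL (1.44-fold lower), opposite to Grm2. Among 13 AMPA and kainate receptor genes, 3 (Grik3, Gria1 and Grik5) had an unadjusted p under 0.05, all lower (1.81-, 1.36- and 1.27-fold), and 1 of 7 NMDA receptor genes did, Grin1 (1.18-fold lower). Among 19 GABA genes, 5 had an unadjusted p under 0.05 and were lower and 2 were higher. Gabrg3, a GABA-A receptor subunit, was at 3.18, 3.23, 2.82 and 3.59 FPKM in PNO and 4.87, 5.5, 5.8 and 6.44 in SAL, with no overlap (1.76-fold lower, log2 difference -0.80, standard error 0.13, adjusted p = 0.195 in limma). Slc32a1, the vesicular GABA transporter, and Gad2, a GABA-making enzyme, were 1.58- and 1.38-fold lower. The subunit gene Gabra4 was 1.53-fold higher. The medians of the AMPA and kainate, NMDA and GABA lists were -0.12, -0.21 and -0.16.

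In the vesicle release list (25 genes), Syn3 passed the rule on the lower side and Slc17a6 on the higher side, and Sv2c, a vesicle protein of the striatum, was at 4.51, 2.25, 3.61 and 3.57 FPKM in PNO and 4.63, 7.94, 5.54 and 5.72 in SAL with no overlap. The most abundant member, Vamp2, had a log2 difference of 0.20 and Snap25 of -0.48. Of 23 postsynaptic scaffold genes, 4 had an unadjusted p under 0.05, all lower (8.9% of all genes): Nlgn2 (1.32-fold), Nlgn3 (1.32-fold), Dlg2 (1.38-fold) and Dlgap2 (1.53-fold). Of 33 potassium and sodium channel genes, 7 were lower and 1 higher at that threshold. Kcnab2, a beta subunit of potassium channels, was at 23.2, 21.9, 30.7 and 25.5 FPKM in PNO and 37.3, 35.8, 30.9 and 43.9 in SAL, with no overlap between the groups. Nos1, the neuronal nitric oxide synthase of striatal interneurons, was at 3.57, 2.36, 3.29 and 3.01 in PNO and 4.51, 5.4, 6.34 and 8.08 in SAL (1.99-fold lower, no overlap), while the other 12 genes of the interneuron list had no unadjusted p under 0.05. Sst and Npy, made by the same interneurons, had log2 differences of -0.33 and -0.29.

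Among 8 neurotrophin system genes, Bdnf and Ntf3 passed the rule on the higher side, where 0.459% of all genes did. Both were at 1 FPKM or more in every PNO library but not in every SAL library. They passed the filter through the group where they were higher, so this count adds no support. Bdnf, brain-derived neurotrophic factor, was at 1.14, 1.95, 2.01 and 1.58 FPKM in PNO and 1.27, 0.44, 0.36 and 1.18 in SAL (2.06-fold higher). Ntf3, neurotrophin 3, was at 1.59, 3.33, 2.5 and 2.12 in PNO and 2.03, 1.06, 0.23 and 1.4 in SAL (2.02-fold higher), and its receptor gene Ntrk3 was at 5.14, 4.82, 4.57 and 6.37 in PNO and 6.89, 7.35, 8.82 and 7.2 in SAL (1.45-fold lower, no overlap). Bdnf lost its unadjusted p under 0.05 in 4 of 8 settings that left out 1 library (without PNO replicate 2 or 3 or SAL replicate 2 or 3) and Ntf3 in 5 (the same 4 and PNO replicate 4). For both neurotrophin genes SAL replicate 1 lay inside the PNO range. Among 19 immediate early genes, Bdnf passed the rule, and Egr3 was at 9.29, 6.95, 7.23 and 9.35 in PNO and 10.4, 11.7, 16 and 15.6 in SAL (1.63-fold lower, no overlap). Fos, Arc and Egr1 had log2 differences of 0.30, -0.22 and -0.14. In the adenylyl cyclase, G protein and RGS list (35 entries), 3 genes were higher at an unadjusted p under 0.05 (Rgs16, Rgs4 and Rgs7) and 5 lower (Gnal, Rgs14, Adcy5, Gng7 and Gnaq). Of all genes, 7.1% were higher and 8.9% lower at that threshold.

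Nuclear genes of oxidative phosphorylation, which encode most subunits of the mitochondrial respiratory chain and ATP synthase, were higher by small amounts. Of 99 such genes, 77 had a difference above 0, against 43.9% of all genes, and the median was 0.14. An unadjusted p under 0.05 was found for 25, all higher in PNO, where 7.1% of all genes were, and 17 had groups that did not overlap on the higher side (4.06% of all genes). None reached 2-fold. The 25 were spread over the complexes, with 10 of 47 genes of complex I, 1 of 4 of complex II, 4 of 13 of complex III, 4 of 16 of complex IV, 5 of 18 of complex V, and cytochrome c (Cycs). Atp5me, a small subunit of ATP synthase, was at 1113, 1136, 1101 and 1323 FPKM in PNO and 826, 856, 949.6 and 868 in SAL (1.34-fold). Ndufa3 of complex I was at 575, 648, 549 and 729 in PNO and 467, 500.4, 461 and 458 in SAL (1.32-fold), and Cox7c of complex IV at 403, 522, 493 and 452 in PNO and 395, 320.1, 361 and 313 in SAL (1.35-fold). Sdhd of complex II was at 99.8, 116, 107 and 96.8 in PNO and 86.5, 87.7, 86.9 and 82 in SAL (1.22-fold). Each of these 4 genes was higher in every PNO library than in every SAL library. Uqcrb of complex III appears as 2 entries, 1.44- and 0.974-fold, and reads may have been split between them. The genes encoded by mitochondrial DNA had a median of 0.14, and the most abundant, Mt-atp6, a log2 difference of 0.14 (95% interval -0.38 to 0.67). Of these 37 genes, 1 was higher and 2 lower at an unadjusted p under 0.05, against 7.1% and 8.9% of all genes. AY172581.19, which is not protein-coding, passed the rule on the lower side, with a mean of 10.3 FPKM in PNO and 41.4 in SAL. The groups overlapped, since SAL replicate 2 was at 10.9 FPKM and the PNO libraries at 7.39 to 14.4. With the thalamus covariate the median of the 37 was -0.22.

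The summed level of the 103 nuclear genes was 23172, 24467, 24715 and 26564 FPKM in PNO and 21529, 20814, 22917 and 23052 in SAL. The lowest PNO library was thus just above the highest SAL library. With the thalamus covariate the median was 0.18 and 5 genes had an unadjusted p under 0.05, with the Y-linked covariate 0.08 and 14 genes, and without SAL replicate 2 0.14 and 16 genes. Proteasome subunits had a similar median of 0.12, with 30 of 35 above 0, 5 higher and 1 lower at an unadjusted p under 0.05, against 7.1% and 8.9% of all genes. Psmb1 was at 158, 168, 178 and 162 FPKM in PNO and 141, 129.6, 135 and 129.9 in SAL and Psmc6 at 45.5, 47.7, 45.7 and 52.1 in PNO and 43, 35.3, 33.2 and 33.1 in SAL. Of 22 heat shock and unfolded protein response genes, 16 had a difference above 0 and 6 below. At an unadjusted p under 0.05, 4 were higher (Hsp90aa1, Ddit3, Manf and Hspd1, 1.34-, 1.25-, 1.24- and 1.18-fold) and none lower, against 7.1% and 8.9% of all genes. With 1 library left out, 1 to 7 were higher and 0 to 1 lower, and Ddit3 lost its p in 6 of 8 such settings. Cytosolic ribosomal protein genes had a median of 0.05, with 5 of 87 higher and 2 lower, shares below those of all genes (7.1% and 8.9%).

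Chromatin and adhesion lists were also examined. Of 19 genes of DNA methylation and histone deacetylation, 4 had an unadjusted p under 0.05, and in all 4 every PNO library was below every SAL library (8.9% and 5.34% of all genes). Dnmt3a, which methylates DNA anew, was at 11.5, 10.9, 12.6 and 13.5 FPKM in PNO and 16.9, 15.5, 14.4 and 19 in SAL (1.36-fold lower). Tet3 and Tet2, which oxidise methylated cytosine, were 1.64- and 1.4-fold lower. No histone deacetylase gene had an unadjusted p under 0.05, and the list median was -0.18. Of 35 protocadherin genes, 6 were lower at that threshold (8.9% of all genes) and none higher (7.1%), with a median of -0.20. Pcdhga1 was 1.89-fold, Pcdh7 1.54-fold and Pcdh1 1.41-fold lower. Members of the Pcdhg cluster share exons, so their reads may have been split between entries. Tnr, tenascin R of the brain matrix, was at 5.82, 2.79, 4.46 and 8.93 FPKM in PNO and 10.5, 9.37, 9.95 and 12.2 in SAL (1.91-fold lower, no overlap).

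**Figure D5:**
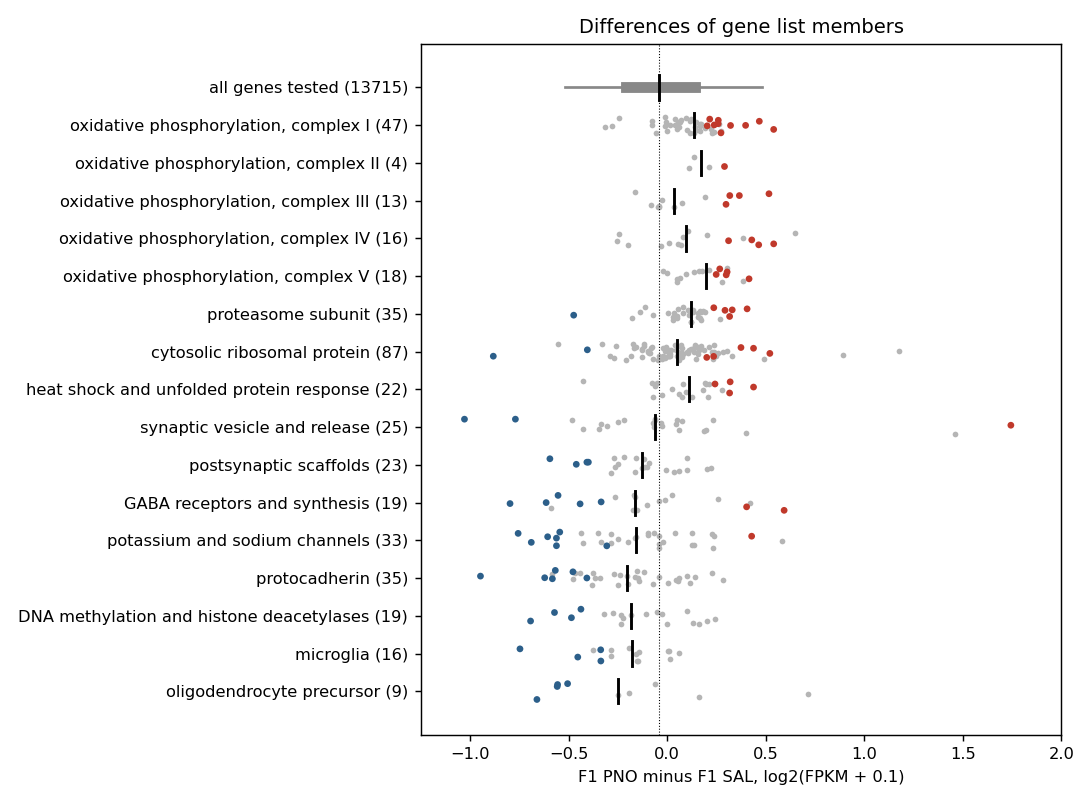
Log2 difference between F1 PNO and F1 SAL for each gene of 16 gene groups, with the number of genes in brackets. Red and blue points had an unadjusted p under 0.05 and were higher or lower in PNO, black bars are medians, the grey bar spans the middle 50% and the line the middle 90% of all 13715 genes, the dotted line is their median (-0.04), and 1 gene below the axis is not drawn.

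No glial or immune gene on the lists passed the 2-fold rule. Among 16 microglia genes, 4 had an unadjusted p under 0.05, all lower (8.9% of all genes). Cx3cr1, the fractalkine receptor, was at 15.3, 13.6, 10.7 and 17.6 FPKM in PNO and 18.7, 22.6, 25.7 and 28.8 in SAL (1.68-fold lower, no overlap), and Csf1r, the receptor for the growth factor microglia depend on, at 18.8, 18.7, 19.3 and 21.1 in PNO and 24.5, 27.3, 27.4 and 27.6 in SAL (1.37-fold lower, no overlap). Laptm5 and C1qc were 1.27- and 1.27-fold lower. Of 24 cytokine and inflammation genes, 11 passed the filter, and none had an unadjusted p under 0.05. Nfkb1 was at 3.93, 4.18, 3.89 and 4.32 in PNO and 3.38, 3.38, 3.41 and 3.57 in SAL, Il18 had a log2 difference of 0.63 (95% interval -0.16 to 1.42), and Il1b, Tnf and Il6 were below the filter. Of 10 rat MHC entries, 9 had a difference below 0 (median -0.20) and 1, RT1-M3-1, was 1.47-fold higher with no overlap. Reads may be shared between similar RT1 entries, so these values are uncertain. Among 9 oligodendrocyte precursor genes, Gpr17, a receptor of cells about to mature, was at 32.3, 27.1, 35.5 and 34.1 in PNO and 47.5, 50.1, 54.3 and 51.6 in SAL (1.58-fold lower, no overlap, adjusted p = 0.195 in limma). The groups did not overlap on the lower side for 2 of the 16 microglia genes and 3 of the 9 precursor genes (Gpr17, C1ql1 and Sox6), against 5.34% of all genes. C1ql1, Cspg4 and Sox6 were 1.42-, 1.5- and 1.45-fold lower. Of 26 myelin genes, Myrf and Sox10 were lower at an unadjusted p under 0.05 (1.33- and 1.29-fold), against 8.9% of all genes. Each of the 2 lost that p in 4 of 8 settings that left out 1 library. Mbp had a log2 difference of -0.22 (95% interval -0.88 to 0.44). Of 20 astrocyte genes, Slc4a4 and the glutamate transporter gene Slc1a2 were lower (1.38- and 1.6-fold), against the same 8.9% of all genes. The log2 differences of Cx3cr1, Csf1r and Gpr17 with the thalamus covariate were -0.50, -0.39 and -0.53.

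In the remaining lists few genes had an unadjusted p under 0.05, where 7.1% of all genes were higher and 8.9% lower. The glucocorticoid list (11 genes) had Nr3c2, the mineralocorticoid receptor, 1.56-fold lower with no overlap, and Cdkn1a 1.66-fold higher. The clock list (16) had Per3 and Ciart lower (1.45- and 1.36-fold) and Nr1d2 higher (1.21-fold). The cholesterol list (23) had Idi1 and Msmo1 higher (1.45- and 1.17-fold). Of 16 immature neuron genes, Stmn1 and Stmn2, which destabilise microtubules in growing neurites, were 1.47- and 1.37-fold higher with no overlap, and Ncam1 1.28-fold lower. Of 16 cell cycle genes, Rrm2 passed the rule (2.05-fold lower) and Pcna was 1.45-fold higher with no overlap. Rrm2 lost its unadjusted p under 0.05 in 5 of 8 settings that left out 1 library. Among 13 serotonin and adrenergic receptor genes, Htr6, Htr1b and Htr1d were lower and Adra1b higher (1.7-, 1.34-, 1.77- and 1.3-fold). Among 8 endocannabinoid genes Abhd6, which breaks down 2-arachidonoylglycerol, was 1.17-fold lower with no overlap, and the receptor gene Cnr1 had a log2 difference of -0.02 (95% interval -0.44 to 0.41). No cortical gene was higher at that threshold, although 13 of 15 had a difference above 0. Slc17a7, the cortical VGLUT1, was at 199, 125, 235 and 147 FPKM in PNO and 226, 61.3, 3.94 and 271 in SAL, with SAL replicate 3 far below the rest.

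The genes that the study had singled out were chosen on these samples, so their count is not independent evidence of direction. Of the 28 entries matched to them (Hba-a2 as 2), 18 passed the filter and 12 the rule, 9 higher (Chrnb4, Gbx2, Grm2, Lef1, Prkcd, Ptger3, Ripply2, Slc17a6 and Tcf7l2) and 3 lower (Avp, Nmb and Oxt). Nmb, neuromedin B, was at 1.5, 1.15, 4.05 and 1.29 FPKM in PNO and 3.24, 5.38, 5.02 and 2.4 in SAL (2.01-fold lower). It lost its unadjusted p under 0.05 in 5 of 8 settings that left out 1 library. The alpha-globin gene Hba-a2 was high in 1 PNO library, replicate 3, in both of its entries (278 and 151 FPKM, 2.97 to 56 in the other 7). Cdh1, Otp, Pmch, Irx2, Irx3, Lhx5, Tlr9, Vdr, Acpp and Agtr2 did not pass the filter.

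The question whether the difference carried over to the next generation was addressed with F2 pups, the offspring of F1 PNO females and males naive to the experiment, and their own F2 saline controls, 4 in each group. The difference between the F1 and the F2 effect had an adjusted p under 0.05 in limma for 0 of 13715 genes (smallest 0.796, Pxmp4) and an unadjusted p under 0.05 for 501 (3.65%). Retsat was at 15.3 ± 1.76 FPKM (SD, n = 4) in F2 PNO and 13 ± 0.784 in F2 SAL, a log2 difference of 0.23 against 1.09 in F1, and the effects differed by 0.86 (standard error 0.18, adjusted p = 1.0 in limma). Ak6 was at 29.5 ± 12.8 FPKM (SD, n = 4) in F2 PNO and 18 ± 4.38 in F2 SAL, a log2 difference of 0.62. Avp and Oxt had F2 differences of -2.39 and -0.88, Nos1 of -1.22, Syn3 of -0.85 and Gprin3 of -0.95, all below 0 as in F1. Other genes had the opposite sign in F2, with differences of -0.84 for AC108616.2, -0.82 for Chrnb4, -0.98 for Gbx2, -0.69 for AABR07027407.1 and 0.06 for Ptcd1. Over the 10 thalamus genes the F2 median was 0.23, over the 32 projection neuron genes -0.14, and over the 99 oxidative phosphorylation genes 0.04. Of the 112 genes past the rule in F1, 84 had an F2 difference of the same sign, 47 of the 63 higher and 37 of the 49 lower genes, while 40.2% of all genes were above 0 and 59.8% below 0 in F2. An unadjusted p under 0.05 with the same sign was found in F2 for 2 of the 63 and 9 of the 49, against 6.5% of all genes higher and 10.7% lower.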

How the data were processed

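The authors deposited one FPKM table per sample, made with StringTie after LC Sciences merged the transcriptomes. The submitters' processing notes name HISAT2, SAMtools, StringTie and edgeR without versions or roles. The genome build is not given in the sources used here. The tables hold no counts, so the depth per library is unknown and no count test was run. Values were compared as log2(FPKM + 0.1) with limma 3.58.1 in R 4.3.3 (linear model with a mean-variance trend, Benjamini-Hochberg adjustment), after a filter of at least 1 FPKM in 4 of the 8 libraries, and single values with a two-sided exact permutation test. Fold changes on this log scale understate those of low genes, and ratios in the text are of mean FPKM. Whether replicates shared a litter is not stated. The fit was tested on simulated data.

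The named genes were the protein-coding genes past the rule with no overlap and the smallest p, 12 in each direction, and the members of gene lists. A few genes that these rules name are not reported here. The remaining named genes were members with an unadjusted p under 0.05, chosen after their values were seen. The members and lists were chosen with earlier results of these data known. Alternatives were the pseudocount, the filter, 2 rescalings, all 24 libraries in one fit, a replicate block, covariates for thalamic, cortical and Y-linked genes, a 1.5-fold limit and leaving out each library. 2 more, leaving out both choroid plexus-rich libraries or both libraries low in Y-linked genes, were chosen after seeing the data. Promoter sequences came from RefSeq (GRCr8), matched by symbol.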

Additional observations from a re-analysis of the deposited data

Results flagged for a closer look

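In 82 sets of 4 libraries tested for a sample far from the others, 4 were flagged, and chance flags about 1 in 20 groups, 4.1 of 82. On the mean of log2(FPKM + 0.1) over a list, or that value of a gene, the gap of the extreme library to its nearest neighbour, divided by the range of the group, was 0.919 for the choroid plexus list in F1 SAL replicate 1, 0.881 for the blood list in F1 PNO replicate 3 and 0.901 for the cortical excitatory list, low in F1 PNO replicate 2. It was 0.927 for Sdhaf3, low in F1 SAL replicate 3. These are given as values, and their part in the results was not tested beyond the settings that left the libraries out.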

How the results depend on the processing

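Of the counts over all genes, the number with an adjusted p under 0.05 was 0, or 1 with all 24 libraries in one fit. The unadjusted count (2195) was 1135 with all 24 libraries, 653 with the thalamus covariate and 3364 without both choroid plexus-rich libraries. The 112 genes past the rule (63 higher, 49 lower) became 325 (147, 178) with a filter of 0.1 FPKM, 467 (189, 278) with no filter and 519 (224, 295) with a 1.5-fold limit, settings that test more genes or ask for a smaller ratio. They became 38 (16, 22) with the thalamus covariate, 252 (149, 103) without the choroid plexus-rich libraries and 174 (128 lower) without the libraries low in Y-linked genes. With all 24 libraries 29 were lower, and with the Y-linked covariate 39 were higher. With 1 library left out they ran from 98 to 226, the higher ones from 48 to 143, the lower from 47 to 83, the unadjusted count from 1352 to 2771 and the adjusted count from 0 to 1. The lower share, 43.8%, was 54.8% with a filter of 0.1 FPKM, 59.5% with none, 57.9% with the thalamus covariate and 73.6% without the libraries low in Y-linked genes. Differences between the F1 and F2 effects with an unadjusted p under 0.05 numbered 884 with no filter. With the thalamus covariate the log2 differences reversed to -0.083 for Slc17a6, -0.35 for Prkcd, -0.029 for Gbx2, -0.082 for Rgs16, -0.0057 for Tcf7l2 and -0.19 for Cdkn1a. For the covariates and left-out libraries the cause was not tested. Correlations of same-numbered libraries ran from -0.04 to 0.10, and 1 of 8 matched best with its own number. Whether same-numbered libraries shared a litter or batch was not tested. With the replicate block, 118 genes passed the rule (64 higher, 54 lower), 2286 had an unadjusted p under 0.05 and 0 an adjusted one, and 478 differed between generations. Of 112 genes past the rule, 67 kept an unadjusted p under 0.05 with any library left out. The depth is unknown, so no limit from counting error can be set for genes near 0.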

Other observations

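Of the 112 genes past the rule, 29 were not protein-coding, 10 of them higher and 19 lower in PNO. Among all 13715 genes tested, 397 were not protein-coding. Within the lists of other cells, the 11 genes of the meninges and fibroblast list each had a log2 difference above 0 (median 0.32) and none had an unadjusted p under 0.05. Of 6 ependymal genes, Rarres2 (chemerin) was 1.47-fold lower in PNO at an unadjusted p under 0.05. Of 19 tubulin entries, Tubgcp4 and Tubgcp6, subunits of the complex that nucleates microtubules, were lower at that threshold, as were 8.9% of all genes. Tubgcp4 lost that p in 6 and Tubgcp6 in 4 of 8 settings that left out 1 library. In the generation comparison, Pxmp4, a peroxisomal membrane protein, had the smallest adjusted p in limma (0.796), with a log2 difference of 0.43 in F1 and -1.21 in F2. Stmn1 and Stmn2, which were higher in F1 PNO, had F1 effects that exceeded the F2 effects by 0.78 and 0.70 on the log2 scale (standard errors 0.25 and 0.23) at an unadjusted p under 0.05.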
